A study of Mus musculus with 15 samples.

Results

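The genes described here are those of the cytosolic ribosomal proteins, measured by RNA-Seq in the developing mouse stomach. They were chosen by symbol alone: Rpl or Rps with a number (with the endings a, l, x or y), plus Rpsa, Rplp0, Rplp1 and Rplp2, without symbols of pseudogenes and without the ribosomal S6 kinases. Of 88 symbols of this form, 83 reached a maximal FPKM (fragments scaled to the length of the gene and the size of the library) of at least 1 and are the members, among 16902 genes that passed the same limit and 44788 symbols in all. Members of the small subunit (Rps) numbered 35 and those of the large subunit (Rpl) 48. The 5 symbols under the limit were Rpl10l, listed at 0 in every library, Rpl39l (highest value 0.609), Rpl3l (0.157), Rps12l2 (0.524) and Rps3a3 (0.529). The members with the lowest maxima above it were Rps3a2 (11.49), Rps12l1 (17.2), Rpl7l1 (68.6) and Rps4l (116.3). Of the members, 4 are diverged paralogues of another member (Rpl22l1, Rpl7l1, Rps27l and Rps4l), and the other 79 are called canonical here, although RefSeq lists Rps12l1 and Rps3a2 among them, and the paralogue Rps4l, as pseudogenes.

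Stomachs of untreated C57BL/6 mice were taken at 15 timepoints, with 1 transcriptome per timepoint. The timepoints fall into 7 fetal ones (E12.5 to E18.5), 5 before the usual age of weaning (D1, D3, D5, W1 and W2, called suckling) and 3 from W3 on (W3, W6 and W8, called weaned). The labels give ages and not feeding, so the names stand for age ranges. No timepoint had a replicate. The timepoints of a stage served as its replicates, and the spread within a stage includes change over time. By the study's summary of its sampling, a replicate pooled several stomachs at the earlier fetal ages and held a single stomach at the later ages. That summary also speaks of replicates at each age, which the RNA libraries do not have, and how many stomachs went into each of these libraries is not stated. It adds that stomachs up to W2 were taken without distinction of sex and the later ones from males. Sex therefore changes with the weaned stage and cannot be told apart from it. In 1 place the study's methods speak of liver for the RNA, whereas the labels name stomach, and marker genes of the stomach were present in the libraries as described below.

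The cytosolic ribosome translates nearly all messenger RNAs of a cell. Its small subunit reads the message and its large subunit joins the amino acids, and each protein is needed in about equal number. In mammals the mRNAs of these proteins carry a start sequence known as the 5' terminal oligopyrimidine (TOP) motif, a cytosine followed by an unbroken run of C and T, through which growth signals set their translation. Gastric epithelium matures around birth and weaning, when it turns from a dividing tissue to one that makes large amounts of a few secreted proteins such as pepsinogen.

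The starts of 8 genes are shown because the TOP motif is the sequence feature the genes are best known for. These 8 hold both forms of start and are among the members named below. They do not show how common the run is among the members. Each window holds 10 bases before and 20 bases from the annotated start, written 5' to 3', and the capitals mark the C and the unbroken C or T run that begins at the start. Sequences and coordinates are from RefSeq on GRCm38.p6.
Rps27 (chr3:90213629-90213658, minus strand): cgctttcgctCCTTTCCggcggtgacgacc
Rps6 (chr4:86857348-86857377, minus strand): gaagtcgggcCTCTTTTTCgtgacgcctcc
Rpl15 (chr14:18270967-18270996, minus strand): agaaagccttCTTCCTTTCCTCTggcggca
Rps15a (chr7:118116128-118116157, minus strand): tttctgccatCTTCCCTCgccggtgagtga
Rpl38 (chr11:114668570-114668599, plus strand): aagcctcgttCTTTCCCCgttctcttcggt
Rplp2 (chr7:141447641-141447670, plus strand): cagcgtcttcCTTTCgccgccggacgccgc
Rps27l (chr9:66946076-66946105, plus strand, 1 of its 2 starts): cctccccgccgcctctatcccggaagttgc
Rpl22l1 (chr3:28805498-28805527, plus strand): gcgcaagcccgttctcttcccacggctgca
The first 6 start with such a run. The paralogues Rps27l and Rpl22l1 start with G at these positions, although Rps27, the parent of Rps27l, begins with a run of 7 bases.

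RefSeq starts were found for 60 of the 83 members, with 71 start entries, and 23 members had none in the table used. A start with C followed by at least 4 further C or T bases stood in 13 entries of the members (18.3%) and in 2.51% of all 32851 entries. Annotated starts often lie some bases away from the base at which transcription begins, and a start without the run says only that these letters are not at that position. In the windows from 250 bases before to 50 bases after the start, read on both strands, CCGGAAG (the core of ETS factor sites) was found in 36.6% of the members' entries and 8.86% of all entries. AAGATGG (the core of the YY1 site) was found in 16.9% and 6.34%, GGGCGG (the core of the GC box) in 61.97% and 35.7%, and TATAAA (the TATA box) in 9.86% and 13.6%. CCGGAAG and AAGATGG can overlap by AAG, and no motif contains another. The suckling against fetal difference had a median of -0.49 on the log2 scale over the 13 members with a C and C or T run and -0.47 over the 47 with other starts. The corresponding medians for weaned against suckling were -0.63 and -0.69. Values are from limma fits described below, with no test between the starts.

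Some properties of the whole series bear on the values. Over all genes, the FPKM of a library summed to 745538 (E14.5) at the least and 1344957 (W6) at the most, and its 10 highest genes took 11.2% and 53.2% of these sums. The 18 measured of 19 stomach marker genes summed to between 1311 and 59418 FPKM in fetal, 82901 and 192902 in suckling and 234007 and 324243 in weaned stomachs. The 20 cell division markers ran the other way, at 774 to 1729, 371 to 610 and 215 to 360. The D1 library stood apart, with 460.5 FPKM of albumin (Alb) and 185.9 of alpha-fetoprotein (Afp), against at most 65.4 and 22.3 elsewhere, and with the 16 liver markers summing to 1732, against 37.9 to 267 in fetal and 267 to 642 in the other suckling libraries. The weaned libraries had 1546 to 2407, of which 1259 to 2270 was Apoa1, which intestine also makes. The counts of calls in both comparisons are given with and without D1. In a whole organ, fewer cells of a type and less RNA per cell cannot be told apart.

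The members supplied about 1 in 4 units of FPKM in the early fetal stomach and far less in the weaned one. Their share of the summed FPKM was 23.3% at E12.5, 24.7% at E13.5, 24.3% at E14.5, 24.5% at E15.5, 21.3% at E16.5, 22.6% at E17.5 and 18.8% at E18.5. After birth it was 20.9% at D1, 14.4% at D3, 14.0% at D5, 13.7% at W1 and 13.4% at W2. It was 10.1% at W3, 6.92% at W6 and 5.87% at W8. The only overlap between stages was therefore that of D1 with the fetal range. The mean share was 22.8% ± 2.12 (SD, n = 7) in fetal, 15.3% ± 3.19 (SD, n = 5) in suckling and 7.62% ± 2.19 (SD, n = 3) in weaned stomachs. Without D1 the suckling mean was 13.9%.

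**Figure D1:**
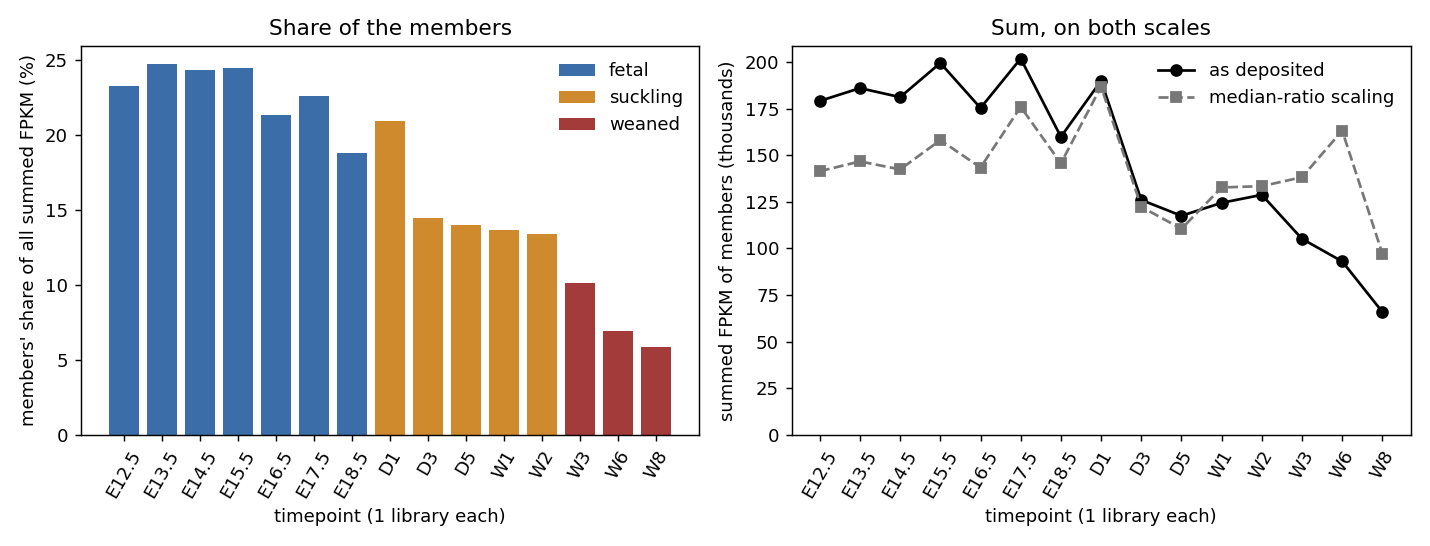
Left, share of the 83 members in all summed FPKM (percent) at each timepoint, 1 library each, coloured by stage. Right, their summed FPKM, as deposited (line) and after median-ratio scaling of the libraries (dashed line). The share falls from 23.3% at E12.5 to 5.87% at W8, and the scaled sum at W6 (163286) lies above the fetal mean of 150601 while that at W8 (97243.8) is the lowest of the 15.

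A share can fall because other genes rise. Leaving the 10 genes highest on average out of the total gave 25.7% ± 1.58, 20.2% ± 2.73 and 13.48% ± 1.85 for the 3 stages. The summed FPKM of the members themselves was 183397 ± 14442, 137410 ± 29752 and 88034 ± 20105. Median-ratio scaling, which sets the typical gene of every library to the same level, brought the stage means of the sum to 150601 ± 12543, 137223 ± 29318 and 132936 ± 33343. These differ by less than the SD within the suckling stage, but D1 widens that SD at 186945. The other suckling libraries lay at 110549 to 133464 on this scale, below every fetal value (141487 to 176059). The weaned values ran from 97243.8 to 163286. The median-ratio factors ran from 1.27 in the early fetal libraries to 0.570 at W6 and 0.678 at W8.

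The fall was uneven in time. Between D1 and D3 each of the 83 members fell, with a median of -0.57 on the log2 scale of log2(FPKM + 1), while the median of all genes was 0.02. By at least 0.5 in log2, 59 members fell in this step, as did 7.80% of all genes. With median-ratio scaling the number was 63, beside 8.12% of all genes. The step before birth, E17.5 to E18.5, had a median of -0.31, with 7 members falling by that much (7.44% of all genes), or 4 with scaling (5.44%), and from E18.5 to D1 the median was 0.22. D1 is the library with the liver markers. Other markers moved in the same step, since the red cell markers summed to 4545 at D1 and 852 at D3 (5690 to 12709 in fetal libraries) and the pancreas acinar markers to 37.5 and 208.8 (24.1 to 62.7 in the remaining suckling libraries). The part of these cells in the step was not tested. Passing over D1, the step from E18.5 to D3 had a median of -0.35 over the members, beside -0.07 over all genes.

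From W2 to W3 the members had a median of -0.33, near the -0.23 of all genes, and with scaling it was 0.01. Between W6 and W8 the median was -0.47, with 32 members falling by at least 0.5 (5.44% of all genes), and after scaling it was -0.72, with 77 members (13.1%). Each step rests on 1 library at either end and has no replicate check. Of the members, 82 had their lowest value at W8, as did 18.54% of all genes, and Rps3a2 had its lowest at W6. The highest value lay at E17.5 in 42 members (5.83% of all genes) and at E15.5 in 28 (6.36%).

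**Figure D2:**
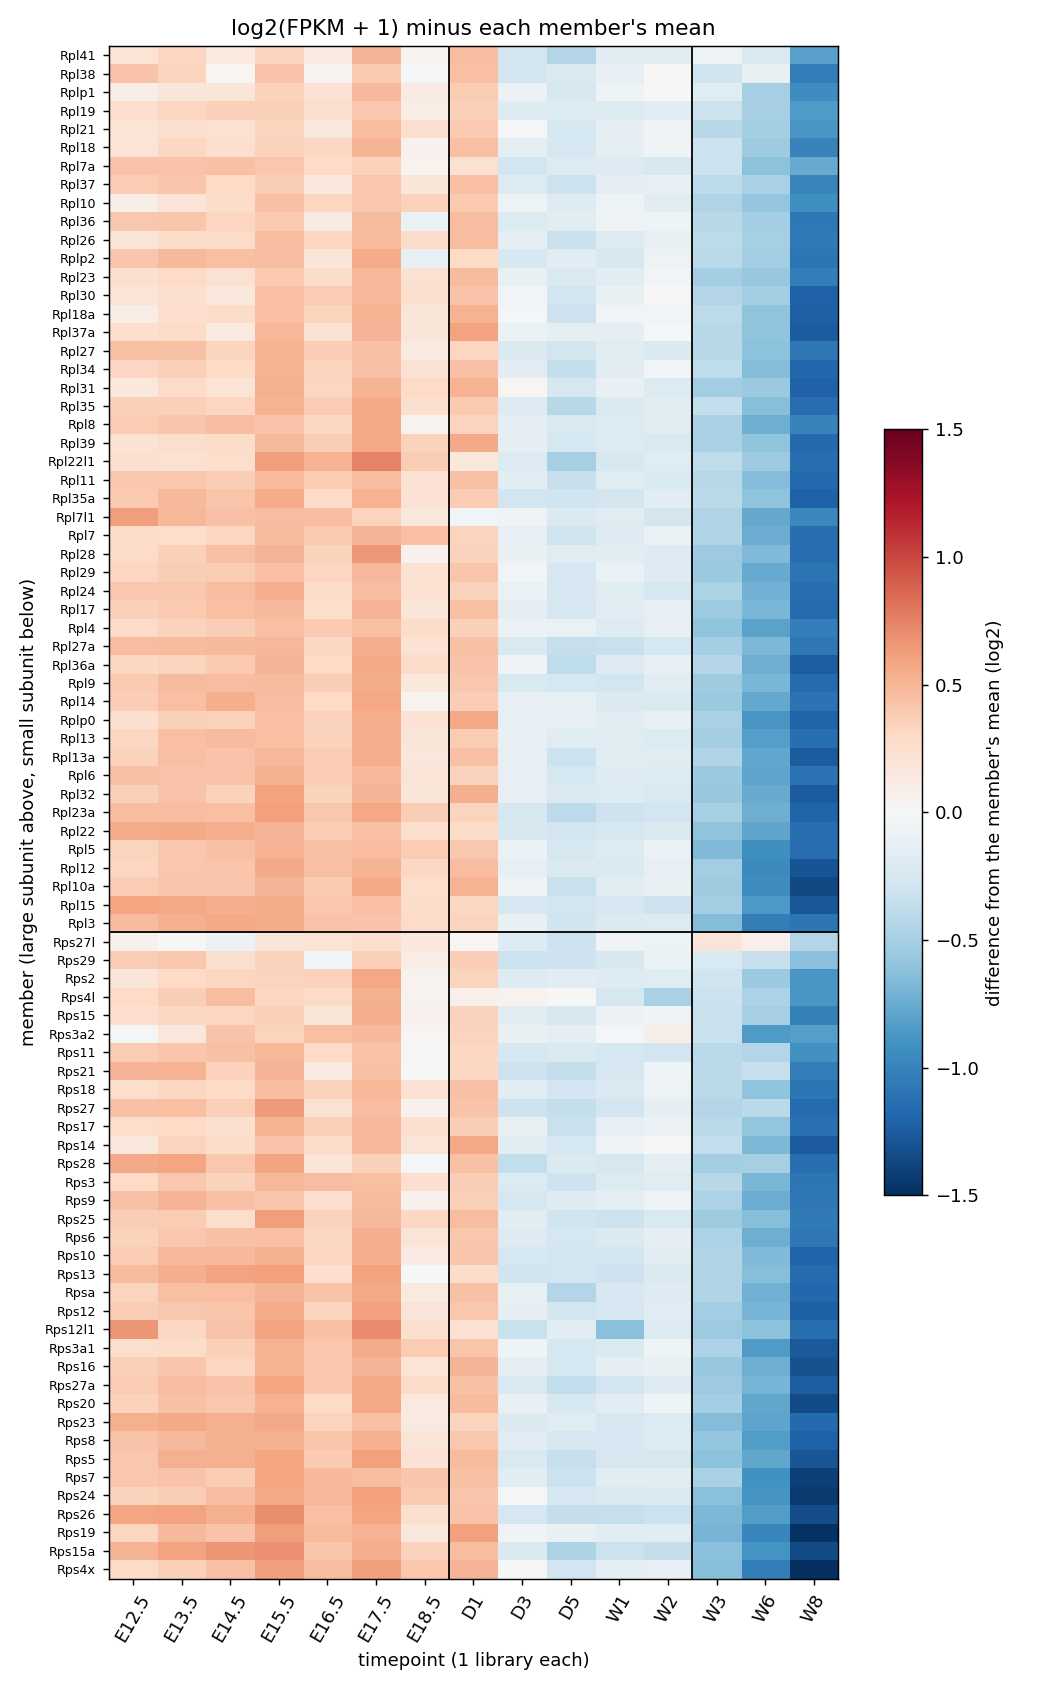
Each row is 1 of the 83 members, large subunit above and small subunit below, and each column 1 timepoint. The colour is log2(FPKM + 1) minus the member's own mean over the 15 timepoints, and the black lines divide the stages and subunits. Nearly all rows change together, with D1 alike to the fetal columns and W8 the darkest blue, and the row of Rps27l stays near white at W3 and W6.

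The levels of the members spanned a wide range. The mean over the 15 timepoints was over 1000 in 64 members, and 55 were among the 100 genes with the highest mean. The 5 highest were Rpl41 (6199), a very short basic protein of the large subunit, Rplp1 (5214), an acidic protein of the stalk, Rps27 (4305), Rps26 (4044) and Rpl38 (3446). The 5 lowest were Rps3a2 (8.24), Rps12l1 (10.9), Rpl7l1 (46.5), Rps4l (83.02) and Rps15a (93.2). FPKM is a level per length, and values of near-identical copies depend on how fragments were shared among them. Entries named as pseudogenes of a member held 0.426% of the members' FPKM in all and over 1% of their parent in 13 members, as in Rps15a (4.98%) and Rpl10 (4.56%). The highest timepoint exceeded the lowest by a median of 3.22 times over the members and 4.08 times over all genes above 0 throughout. It exceeded it by 1.61 times in Rps27l and 4.39 times in Rps4x.

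Across the 15 timepoints the members rose and fell together. Pearson's r of each member's log2 value with the mean of the other canonical members had a median of 0.987, and it was at least 0.9 in 81 of 83. The lowest were Rps27l (0.596) and Rpl38 (0.897). These points share libraries, and the r is given as a description only. The small subunit took 43.9% ± 0.627 of the canonical FPKM in fetal, 42.6% ± 0.376 in suckling and 42.1% ± 0.162 in weaned stomachs.

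After birth the members that passed the test were all lower. In limma's test with Benjamini-Hochberg adjustment over all genes, at an adjusted p under 0.01, the F test across the 3 stages called 80 of 83 members, beside 67.9% of all genes. In suckling against fetal stomachs 39 members were lower, beside 30.6% of all genes, and 0 were higher, beside 10.8% of all genes. At an unadjusted p under 0.05 limma gave 75 lower and 0 higher. The share of all genes at this unadjusted limit was not counted, here or for the later counts at it. The median member difference was -0.46 and that of all genes -0.22. In the canonical small subunit 17 of 33 were called lower, and in the canonical large subunit 19 of 46.

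The 5 canonical members with the largest falls were Rps15a, Rps12l1, Rps26, Rpl23a and Rpl15. Rps15a, a protein of the small subunit, had 108.9, 125.0 and 138.3 FPKM as its lowest, median and highest fetal values, and 117.9, 73.5, 61.9, 68.4 and 66.8 at D1, D3, D5, W1 and W2. All suckling values except D1 lay below the fetal range, and the difference was -0.72 ± 0.16 (SE, adjusted p = 0.00172, limma). Rps26, which lies at the mRNA exit and is a gene of Diamond-Blackfan anemia, had 4396, 5606 and 6040 FPKM in fetal libraries and 5028, 3118, 2907, 2938 and 2987 in suckling ones. Its difference was -0.70 ± 0.15 (adjusted p = 0.00165, limma), with D1 again within the fetal range. Rpl15 of the large subunit differed by -0.65 ± 0.14 (adjusted p = 0.00145, limma), and Rpl23a, at the exit of the peptide tunnel, by -0.66 ± 0.14 (adjusted p = 0.00132, limma). Rps12l1 differed by -0.70 ± 0.15 (adjusted p = 0.00136, limma) at a mean fetal level of 14.7 FPKM, and is listed as a pseudogene by RefSeq.

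The number called lower after birth was 73 without D1, where 4538 of all 16902 genes were lower. It was 24 without E13.5 (4127 of all genes), 22 without E14.5 (4087), 18 without E15.5 (4211) and 24 without E17.5 (5539). It was 16 without D3 (4304), 13 without D5 (4680), 12 without W1 (3724) and 13 without W2 (3842). Of 20 named members called lower, 9 kept the call whichever timepoint was left out: Rps26, Rps12l1, Rps15a, Rpl23a, Rpl15, Rpl7l1, Rpl22l1, Rpl3 and Rpl22. Suckling values lay below all fetal values in 4 members, beside 20.9% of all genes.

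After weaning, too, the members that passed the test were all lower. In weaned against suckling stomachs 58 of 83 members were lower, beside 28.9% of all genes, and 0 were higher, beside 2.57% of all genes, in limma at an adjusted p under 0.01. At an unadjusted p under 0.05 limma gave 79 lower and 0 higher. The median member difference was -0.68, beside -0.42 over all genes. Without D1 the number called lower was 47 and the median -0.56, against 73 and -0.57 after birth, so that which of the comparisons had more calls turned with this library. Of all 16902 genes 3763 were then lower after weaning and 4538 after birth. Weaned values lay below all suckling values in 73 members (46.5% of all genes) and below all fetal values in 82 (52.8% of all genes). Called lower were 23 of 33 canonical members of the small subunit and 34 of 46 of the large.

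The 5 largest falls were those of Rps19, Rps4x, Rps24, Rpl10a and Rpl12. Rps19, the gene most often mutated in Diamond-Blackfan anemia, had 1373, 1701 and 1895 FPKM as its lowest, median and highest fetal values. It had 1872, 1182, 1132, 1098 and 1086 in the suckling libraries in order of age and 755.4, 620.5 and 439.2 at W3, W6 and W8. No weaned value reached the suckling range, and the difference was -1.07 ± 0.19 (adjusted p = 0.000884, limma).

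Rps4x, a small subunit gene on the X chromosome, had 1803, 1993 and 2277 FPKM in fetal libraries. Its values were 2099, 1480, 1208, 1336 and 1354 in suckling and 949.9, 718.7 and 519.3 in weaned ones. The 3 weaned values were the lowest of the 15, and the difference was -1.05 ± 0.19 (adjusted p = 0.000903, limma). Rps24 differed by -0.92 ± 0.18 (adjusted p = 0.00126, limma), Rpl10a by -0.91 ± 0.19 (adjusted p = 0.00178, limma) and Rpl12 by -0.88 ± 0.17 (adjusted p = 0.00139, limma). In the exact two-sided permutation test of 3 against 5 timepoints, each of these 5 had p = 0.0357, the smallest that the 56 splits allow. The number called lower was 9 without W6 and 8 without W8, beside 1375 and 3012 of all 16902 genes. Of 27 named members called, 6 kept the call whichever timepoint was left out: Rps19, Rps4x, Rps24, Rpl5, Rpl4 and Rpl3.

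Most of these calls depended on the scale. With median-ratio scaling, which moved the median of all genes from -0.22 to 0.00 in the first comparison and from -0.42 to -0.02 in the second, the F test called 5 members (57.7% of all genes). In suckling against fetal stomachs 1 member was lower (15.0% of all genes), Rpl7l1, and 0 were higher (17.0%). In weaned against suckling stomachs 0 were lower (7.72%) and 1 was higher (12.496%), Rps27l. At an unadjusted p under 0.05 limma gave 10 lower and 0 higher in the first comparison and 2 lower and 1 higher in the second. The member medians were then -0.18 and -0.09, so that the direction of each median stayed, its size fell and the larger of them was that after birth. On this scale weaned values lay below all suckling values in 0 members (17.3% of all genes) and below all fetal values in 17 (24.9% of all genes). Quantile normalization left 80 members called across the stages (9651 of all 16902 genes), 51 lower after birth (3965) and 57 lower after weaning (897). A fixed sum without the 10 highest genes left 80 (10625), 41 (3253) and 68 (3185). Most calls were thus lost with median-ratio scaling and kept with these other scalings.

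**Figure D3:**
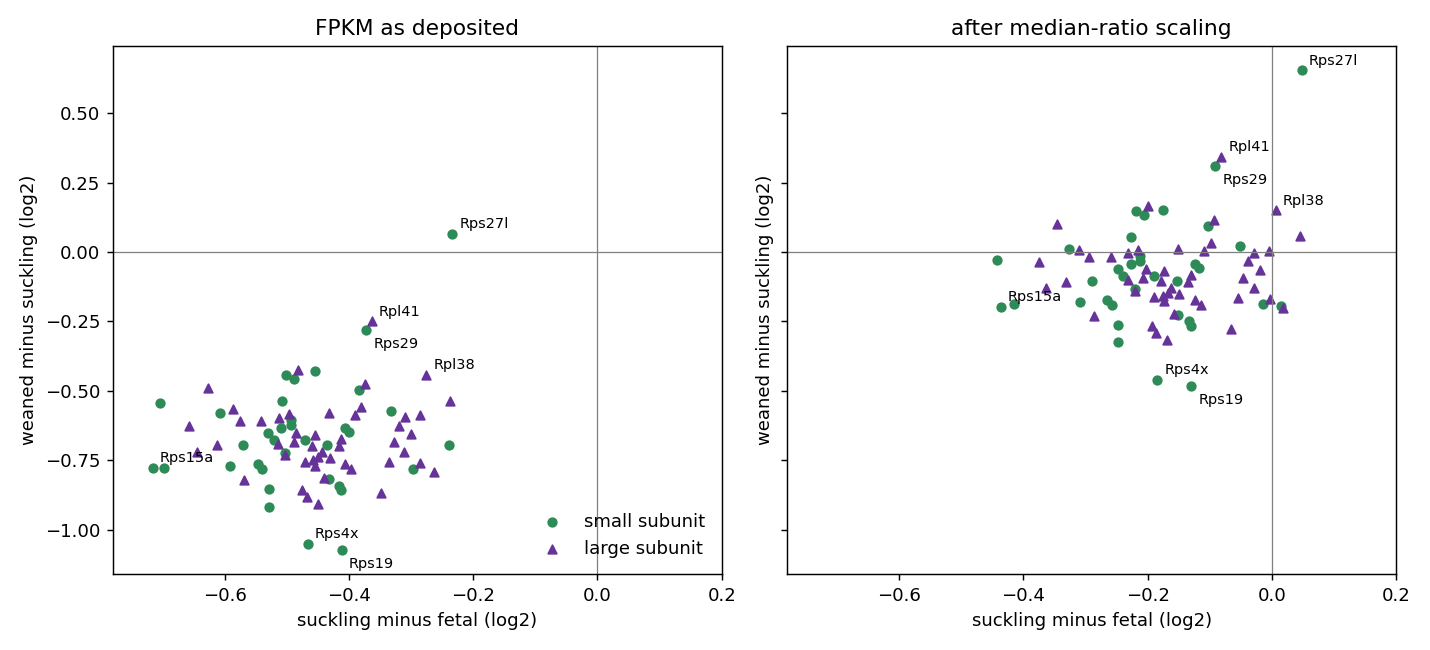
Each point is 1 of the 83 members, with the suckling minus fetal difference on the x axis and the weaned minus suckling difference on the y axis, in log2, for FPKM as deposited (left) and after median-ratio scaling (right). Circles are the small subunit and triangles the large. On the left the members form 1 cloud around the medians of -0.46 and -0.68, with Rps27l above it, and on the right the cloud lies around -0.18 and -0.09.

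The structural parts of the ribosome had differences near those of the family, with medians after birth and after weaning of -0.35 and -0.58 in the P stalk, -0.48 and -0.76 in the proteins that bind 5S rRNA and -0.42 and -0.74 in those of the exit tunnel. The 3 proteins of the P stalk, which recruits the elongation factors, were Rplp0, Rplp1 and Rplp2. After weaning 1 of the 3 was called, Rplp0, at -0.87 ± 0.18 (adjusted p = 0.00174, limma), while Rplp1 had -0.54 ± 0.17 (adjusted p = 0.0160) and Rplp2 -0.58 ± 0.18 (adjusted p = 0.0181). After birth 0 of the 3 were called, but without D1 Rplp0 (-0.49, adjusted p = 0.00375) and Rplp2 (-0.53, adjusted p = 0.00909) were. Rplp0, often used as a reference gene, had 2121, 2313 and 2667 FPKM as its fetal lowest, median and highest values. It had 2713, 1676, 1668, 1633 and 1678 in suckling and 1295, 993.7 and 789.4 in weaned libraries, so its level at W8 was below that of each earlier library. On the median-ratio scale its difference after weaning was -0.28 (adjusted p = 0.229).

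Rpl5 and Rpl11, which bind the 5S rRNA and, when free of the ribosome, the p53 regulator Mdm2, were both called lower in both comparisons. Rpl5 had 701.8, 752.3 and 799.7 FPKM as fetal lowest, median and highest values, 739.4, 520.8, 464.7, 483.2 and 517.9 in suckling and 352.4, 293.4 and 250.6 in weaned libraries. Its differences were -0.47 ± 0.12 (adjusted p = 0.00331, limma) and -0.86 ± 0.14 (adjusted p = 0.000598, limma). Those of Rpl11 were -0.49 ± 0.14 (adjusted p = 0.00908) and -0.65 ± 0.18 (adjusted p = 0.00762). The call of Rpl5 after birth was lost when D5 or W1 was left out. That of Rpl11 was lost when any 1 of E12.5 to E17.5, D3, D5, W1, W2 or W6 was left out, and that of Rpl4, given next, without E15.5, D3, D5, W1 or W2. Of the proteins that line the peptide exit tunnel, Rpl4, Rpl17 and Rpl39, Rpl4 was called after birth (-0.40 ± 0.10, adjusted p = 0.00477) and all 3 after weaning, at -0.78, -0.74 and -0.70.

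Lower after weaning were 58 of all 83 members and 28.9% of all genes, and after birth 39 and 30.6%. Beside these, the 4 X-linked members (Rpl10, Rpl36a, Rpl39 and Rps4x) were called after weaning (4 of 4) and not after birth (0 of 4). Their medians of -0.72 and -0.43 were near those of all members. Without D1 each of the 4 was also called after birth, at -0.43 in Rpl10, -0.57 in Rpl36a, -0.57 in Rpl39 and -0.60 in Rps4x, as were Rpl10a and Rpl17 of the groups described here. After weaning Rpl39, Rpl11 and Rpsa then lost the call (adjusted p = 0.0104, 0.0113 and 0.0145, limma). Members with known roles in signalling, in selective translation or as fusion proteins were Rps6, Rps27a, Rpsa, Rps3, Rps25, Rpl10a and Rpl38. Of these 7, 5 were called lower after birth and 6 after weaning, beside 30.6% and 28.9% of all genes. Rps6, Rps27a, Rpsa, Rps3 and Rps25 each lost the call after birth when any 1 of D3, D5, W1 or W2 was left out. Rps6, the substrate of the S6 kinases, differed by -0.47 ± 0.13 (adjusted p = 0.00628) and -0.68 ± 0.16 (adjusted p = 0.00370). Rps27a, made as a fusion with ubiquitin, differed by -0.57 ± 0.15 (adjusted p = 0.00435) and -0.70 ± 0.18 (adjusted p = 0.00627). Rpl38, whose loss alters translation of Hox mRNAs in the embryo, was not called in either comparison (-0.28 ± 0.17, adjusted p = 0.170, and -0.44 ± 0.21, adjusted p = 0.0910). Its values ranged widely between neighbours, with 4561 at D1, 2724 at D3, 3096 at W6 and 1628 at W8. With median-ratio scaling 0 members of these 5 groups were called in either comparison by limma at an adjusted p under 0.01. Leaving out W6, and likewise leaving out W8, ended the calls after weaning of Rplp0, Rpl10, Rpl10a, Rpl11, Rpl17, Rpl36a, Rpl39, Rps3, Rps6, Rps25, Rps27a and Rpsa, and leaving out W6 ended that of Rpl12.

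Each library was then shifted to the same median of the 79 canonical members, to find members that departed from the rest. The F test called 4 of 83 members, Rps27l, Rpl41, Rps29 and Rplp1, beside 47.2% of all genes, and Rps29 was named only after its values were seen. The number depended on the method, with 10 members under a trended robust prior (8004 of all 16902 genes). It was 26 in a one-way analysis of variance on FPKM (6701 of all genes) and 27 after quantile normalization (12759). In the contrasts 0 passed after birth (lower 1.63% and higher 24.6% of all genes), and at an unadjusted p under 0.05 limma gave 3 higher and 0 lower. After weaning 1 passed, Rps27l, which was higher (9.53% of all genes), and 0 were lower (1.22%), with 5 higher and 2 lower at an unadjusted p under 0.05. The number called in the F test was 2 without E14.5 (7135 of all genes), 2 without E15.5 (7043) and 1 without W6 (7126). Rplp1 lost the F call when any 1 of the fetal libraries other than E17.5, or D3, W1, W2, W3 or W6, was left out, Rps29 without E14.5, E15.5, W6 or W8, and Rpl41 without W6.

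Rps27l, a paralogue of Rps27 that p53 is known to induce, had 389.6, 460.7 and 490.8 FPKM as its fetal lowest, median and highest values. It had 421.3, 360.1, 332.2, 397.3 and 392.5 in suckling and 471.6, 435.1 and 304.7 in weaned libraries. Thus W3 and W6 lay above every suckling value, while W8 was the lowest of all. Relative to the median of all 83 members it lay at -2.22 ± 0.11 in fetal, -1.94 ± 0.22 in suckling and -1.18 ± 0.10 in weaned libraries (log2, mean ± SD), and the weaned and suckling values did not overlap. In the fit, relative to the median of the 79 canonical members, the rise after weaning was 0.80 ± 0.16 (SE, adjusted p = 0.00242, limma). The adjusted p was 0.0141 without W6 and 0.0120 without W8, at differences of 0.76 and 0.80. With no shift the difference was 0.07 ± 0.14 (adjusted p = 0.705).

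Rpl41 lay at 1.77 ± 0.10, 1.93 ± 0.09 and 2.37 ± 0.11 above the median of all 83 members in the 3 stages. Its difference after weaning in the fit, relative to the canonical median, was 0.48 ± 0.13 (adjusted p = 0.0152, limma), 0.51 without D1 (adjusted p = 0.00861, limma) and -0.24 with quantile normalization. Rps29, a zinc-binding protein of the small subunit, lay at 0.78 ± 0.17, 0.92 ± 0.10 and 1.34 ± 0.15. Its FPKM was 2925 at its fetal lowest and 1944 at W8. Rplp1 lay at 1.51 ± 0.05, 1.80 ± 0.09 and 1.95 ± 0.03, and in it all fetal values lay below all suckling values. Over the 79 canonical members, with Rpl41, Rps29 and Rplp1 among them, the relative differences after weaning had an SD of 0.14 and ran from -0.34 in Rps19 to 0.48 in Rpl41.

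**Figure D4:**
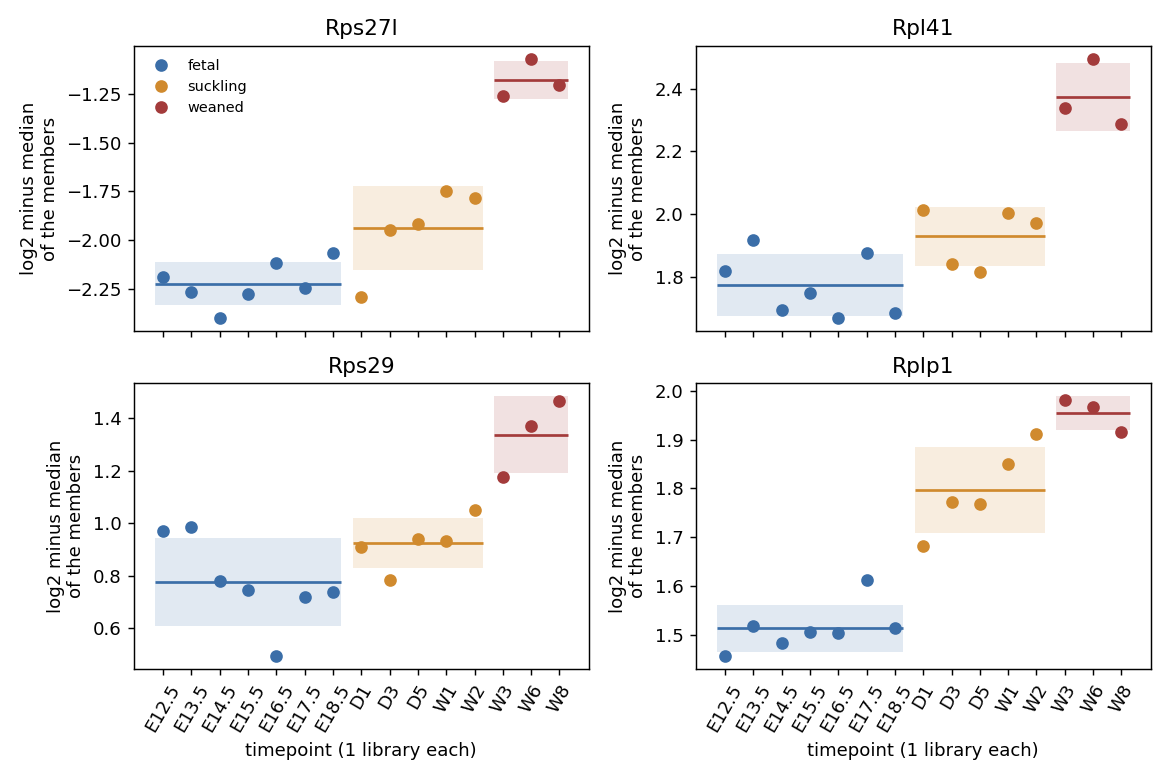
log2(FPKM + 1) minus the median of the 83 members in the same library, by timepoint (1 library each). Shown are the 4 members called in the F test, which used values shifted to the median of the 79 canonical members instead. Points are libraries, lines the stage means and bands 1 SD. In Rps27l, Rpl41 and Rps29 the 3 weaned points lie above all others, and in Rplp1 the stages rise from 1.51 to 1.80 and 1.95.

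The paralogues kept low levels beside their parents, with 1 exception. Rpl22l1 exceeded its parent Rpl22 in every library, at 275% ± 49.9 of its FPKM in fetal, 269% ± 20.9 in suckling and 311% ± 28.5 in weaned libraries, and within the fetal stage it went from 218% at E13.5 to 344% at E17.5. Rpl22l1 itself fell after birth by 0.63 on the log2 scale (adjusted p = 0.00272, limma), as did Rpl22 by 0.61 (adjusted p = 0.000852, limma). Rps27l stood at 8.47% ± 1.37 of Rps27 in fetal, 10.2% ± 1.57 in suckling and 15.4% ± 1.30 in weaned libraries. The weaned values, 15.7%, 14.0% and 16.6% at W3, W6 and W8, were all above the suckling maximum of 11.8% at W1.

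Rps4l stood at 5.004% ± 0.549, 5.09% ± 1.06 and 7.69% ± 0.850 of Rps4x, and how fragments of the similar genes were divided between them is not stated. Rpl7l1, whose protein acts in ribosome assembly, stood at 3.20% ± 0.483, 2.90% ± 0.363 and 3.12% ± 0.2004 of Rpl7. It was called lower in both comparisons, at -0.59 ± 0.10 (adjusted p = 0.000453, limma) and -0.57 ± 0.13 (adjusted p = 0.00261, limma). The ratios are descriptions, with no test. Rpl3l and Rpl10l, known from muscle and testis, stayed under the limit.

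**Figure D5:**
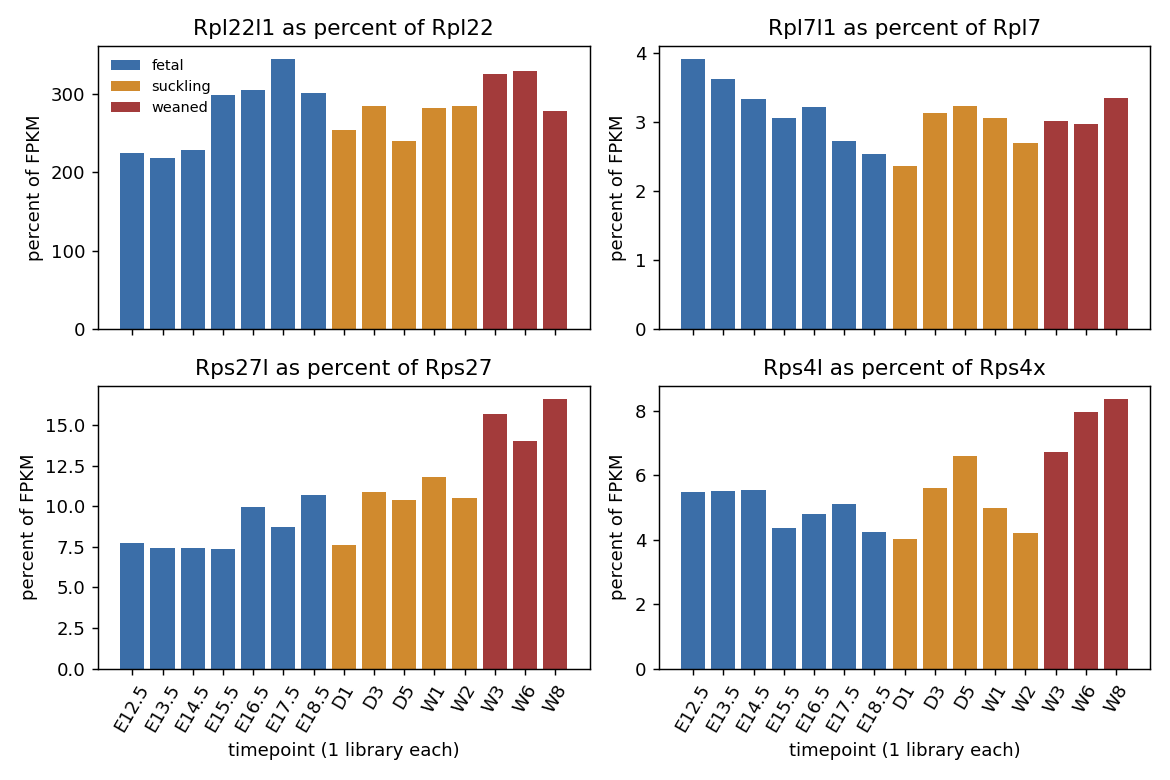
FPKM of 4 paralogues as a percent of that of their parent gene at each timepoint (1 library each), coloured by stage. Rps27l and Rps4l are at their highest in the 3 weaned libraries, Rpl22l1 lies above 200% throughout, and Rpl7l1 falls from 3.91% at E12.5 to 2.36% at D1.

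Some proteins of the ribosome have symbols that the rule does not take. Gnb2l1 (Rack1), a scaffold protein of the small subunit, had 1302, 1561 and 1596 FPKM as fetal lowest, median and highest values. It had 1497, 983.3, 902.1, 1005 and 1005 in suckling and 797.0, 647.9 and 521.0 in weaned libraries, in the pattern of the members. It was called lower in both comparisons, at -0.51 ± 0.13 (adjusted p = 0.00432, limma) and -0.72 ± 0.16 (adjusted p = 0.00294, limma). With median-ratio scaling it was called in neither, at -0.23 (adjusted p = 0.142, limma) and -0.12 (adjusted p = 0.559, limma). Fau, which is made as a fusion with a ubiquitin-like protein, had -0.17 ± 0.13 after birth (adjusted p = 0.279) and -0.41 ± 0.16 after weaning (adjusted p = 0.0484). Rpl36al, an autosomal copy of Rpl36a, had -0.03 ± 0.17 and 0.05 ± 0.21 (adjusted p = 0.888 and 0.860). The 10 genes outside the members with the highest Pearson r with the mean of the canonical members, over 15 libraries, were Gnb2l1 (0.995), Eef1b2 (0.990), Gm15501, Smim7, Pfdn1, Rpl10a-ps1, Eif3k, Eif3m, 1500012F01Rik and Gfod2 (0.980). Among them Eef1b2 is an elongation factor subunit, Eif3k and Eif3m are initiation factor subunits and Pfdn1 is a chaperone subunit.

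Other lists of the translation machinery are set beside the members, with no test between lists. Of 41 translation factors 33 were lower after birth and 14 after weaning, where 30.6% and 28.9% of all genes were lower, with medians of -0.50 and -0.36. The largest called falls after birth were those of Eif4e, the cap-binding factor, at -0.88 ± 0.10 (adjusted p = 8.54e-05, limma), of Eif2s3x, a subunit of the factor that brings the initiator tRNA, at -0.88 ± 0.16 and of Eif4a1, an RNA helicase, at -0.85 ± 0.13. After weaning the largest were those of Eif3e (-0.85 ± 0.15), Eef1a1, the main elongation factor (-0.71 ± 0.14), and Eif3f (-0.71 ± 0.15). Of 73 ribosome biogenesis genes 64 were lower after birth and 34 after weaning, led by Npm1 (-1.38 ± 0.18), Nop56 (-1.13 ± 0.18) and Dkc1 (-0.98 ± 0.11), all proteins of the nucleolus, after birth and Nle1, Polr1b and Ncl after weaning. With median-ratio scaling 44 of these 73 and 11 of the 41 factors were lower after birth, where 1 of the 83 members and 15.0% of all genes were. After weaning on this scale 1 biogenesis gene was lower and 6 were higher, and of the factors 0 were lower and 7 higher, beside 7.72% lower and 12.496% higher over all genes. The 20 cell division markers all fell after birth on both scales. The part of cell division in the other differences was not tested.

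Of 75 genes of the mitochondrial ribosome, which translates the mitochondrial genome and shares no members with the cytosolic one, 28 were lower after birth, beside 30.6% of all genes. After weaning 4 were lower and 2 higher, beside 28.9% and 2.57% of all genes. Mrps22 fell after birth by 0.67 (adjusted p = 0.000119, limma), and Mrps21 rose after weaning by 0.62 (adjusted p = 0.00235, limma). Mrpl23 fell after weaning by 0.74 (adjusted p = 0.00200, limma), and Mrpl3 by 0.54 (adjusted p = 0.00573, limma). With median-ratio scaling Mrpl23 (-0.15, adjusted p = 0.534, limma) and Mrpl3 (0.03, adjusted p = 0.839, limma) were not called after weaning. On that scale Mrps22 after birth (-0.40, adjusted p = 0.000840, limma) and Mrps21 after weaning (1.21, adjusted p = 0.000239, limma) still were. With median-ratio scaling 6 of the 75 were lower after birth, beside 15.0% of all genes. On this scale 47 of the 75 were higher after weaning, beside 12.496% of all genes and 1 of the 83 cytosolic members. The list median after weaning was then 0.56, beside -0.09 for the members. Of 22 genes of growth control and TOP mRNA binding, 7 were lower after birth and 9 after weaning, beside 30.6% and 28.9% of all genes, and with median-ratio scaling 3 lower and 1 higher and then 2 lower and 2 higher. The largest falls after weaning were those of Mycn (-2.38 ± 0.37), Mycl (-1.85 ± 0.24) and Tia1 (-1.54 ± 0.36). Mycn and Mycl are Myc family transcription factors, and Tia1 is a protein that binds TOP mRNAs under stress.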

How the data were processed

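RNA-Seq values of 15 mouse stomach libraries, 1 per timepoint, were used. For each gene entry the authors deposited an FPKM value and its confidence bounds. The methods of the study name HISAT2 and StringTie on GRCm38, the submitters' processing notes name Bowtie 0.12.2, FastQC and GRCm38.p2, and the tables are laid out as by Cufflinks. Read depth is not given in the sources used here. The deposited bounds had a median half-width of 3.80% over the members. They describe the value of 1 library and do not cover variation between animals.

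Entries with the same symbol were summed; Rpl10a, Rps10, Rps18, Rps28 and Rps4l had several. Genes that reached 1 FPKM in any library were tested on log2(FPKM + 1) with limma 3.58.1 in R 4.3.3 over all 15 libraries, with Benjamini-Hochberg adjustment over all genes and a threshold of 0.01. A fold change on this scale understates that of low genes. A second fit used values shifted to an equal median of the canonical members. The test was tried on simulated data. Tables were handled with Python 3.11.15 and pandas 2.3.3.

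Named were the 5 highest and 5 lowest members, the 5 largest called canonical changes in each direction per contrast, the structural, X-linked, signalling and paralogue lists with their parents, ribosomal proteins outside the symbol rule, the 3 largest called changes of each other list and the 10 most alike genes. The members and lists were chosen with earlier results of these data known. Protein sequences were not analysed here, and 1 gene that the naming rule takes is not reported here.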

Additional observations from a re-analysis of the deposited data

Results flagged for a closer look

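In the suckling group (5 libraries) and the fetal group (7), a value is listed here when its gap to the nearest other value exceeds Dixon's 95% critical share of the group's range. Of 82 groups of values examined, 24 met this, where chance gives about 1 in 20, and the groups share libraries. In 23 of the 24 the value is the D1 library, which was the highest of the suckling group.

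For the family, D1 stood at a summed FPKM of 190110, a median member of 2161 and a share of 20.9%. The members at D1 were Rpl10 (2519), Rpl11 (3024), Rpl12 (2300.0), Rpl15 (449.2), Rpl17 (1718), Rpl22 (190.1), Rpl23a (2051), Rpl26 (2543), Rpl39 (3205), Rpl4 (1375), Rpl5 (739.4), Rplp0 (2713), Rps15a (117.9), Rps19 (1872), Rps25 (1505), Rps26 (5028), Rps27 (5527), Rps27a (1777), Rps3 (833.3) and Rps6 (1129). The D1 library also held the liver markers named in the report, and their part in these values was not tested. The remaining value was Rpl11 at E18.5, at 2611 FPKM the lowest fetal one.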

How the results depend on the processing

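Counts of members called with adjusted p under 0.01 depended on the scale first. Median-ratio scaling left 5 members called across the stages (80 as reported), 1 lower after birth (39), 0 lower (58) and 1 higher (0) after weaning, and member medians of -0.18 and -0.0941 (-0.46 and -0.68). Quantile normalization left 51 lower after birth and 57 after weaning, beside 3965 and 897 of all 16902 genes. A fixed sum without the 10 highest genes left 41 and 68, beside 3253 and 3185. Without a filter on low values 14 and 27 were lower, beside 3765 and 3049 of the 44788 genes then tested. The protein phases of the study put E17.5 and E18.5 with the suckling libraries. With them 6 were lower in the first comparison, beside 6035 of all 16902 genes. Relative to the member median 4 were called (7986 of all genes), and 27 with quantile normalization (12759). The number was 10 with a trended robust prior (8004) and 26 by one-way analysis of variance on FPKM (6701). The cause was not tested. Leaving the 10 highest genes out of the total gave shares of 25.7%, 20.2% and 13.48%.

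Leaving out 1 timepoint gave 78 to 82 members across the stages, 12 to 73 lower and 0 to 0 higher after birth, 8 to 69 lower and 0 to 0 higher after weaning, 1 to 5 in the relative F test, medians of -0.57 to -0.41 and -0.83 to -0.51, and shares of 22.5% to 23.4%, 13.9% to 15.8% and 6.396% to 8.50%.

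Over 78 differences of named members and 28 alternatives, 1824 values kept direction and side of the threshold, 260 lost the call, 78 gained it and 18 turned sign. An exact permutation test was set against 0.05, unadjusted. With median-ratio scaling the turned values were, after birth, Rpl38 (0.00595), Rplp1 (0.0452), Rps27l (0.0478) and Rps3a2 (0.0142), and after weaning Rpl22l1 (0.10), Rpl26 (0.00325), Rpl38 (0.15), Rpl41 (0.34), Rpl7l1 (0.00644), Rplp1 (0.0563), Rplp2 (0.0119), Rps27 (0.0543) and Rps4l (0.15), none of which passed on that scale. Rps27l after weaning was -0.0279 with the protein phases, and from -0.0590 (without W3) over -0.00107 (without W6) to 0.255 (without W8) when 1 timepoint was left out. With quantile normalization the relative differences after weaning were -0.24 in Rpl41 and -0.0228 in Rplp1. No paired analysis was possible because each timepoint has 1 library and the numbers pair nothing across stages. The number of fragments per library is unknown, so levels of the lowest members, such as Rps3a2, have no stated precision beyond the deposited bounds.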
